A study of Danio rerio with 24 samples.

Results

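In the early zebrafish embryo, 30 genes were strongly enriched in endodermal cells at both stages examined and stayed within 1 unit of the control on the log2 scale when embryos received retinoic acid (RA) or the retinoic acid receptor (RAR) blocker BMS493. They were chosen from 33737 genes by a rule on CPM, the counts of a gene relative to the library total and scaled to 1000000. L is the group mean of log2(CPM + 1). A gene was kept when L was higher by at least 3 in DMSO endodermal cells than in non-endodermal (NE) cells at both stages, when every DMSO library lay above every NE library of its stage, and when L in RA and in BMS493 cells differed from L in DMSO cells by less than 1 at both stages. These same values chose the genes, so the contrasts of DMSO with NE cells and of the treatments with DMSO are given below as a description only. The differences between stages were not a term of the rule and were tested. Bounds set at both stages still limit how far the 30 genes could change between them.

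Embryos of the Tg(sox17:GFP) line, in which the sox17 promoter drives GFP in endodermal cells, were incubated with the solvent DMSO, with RA or with BMS493 (a pan-RAR inverse agonist) from early cleavage until 3 somites (3-S). Cells were sorted at 3-S, or at 8 somites (8-S) after the drug had been washed out, and stage cannot be told apart from the time elapsed since treatment. Endodermal GFP+ cells were taken from all treatments and NE (GFP-) cells from DMSO-treated embryos only. This gives 24 RNA-seq libraries in 8 groups of 3, and every group carries the transgene. Embryos were deyolked before sorting. No label says whether the 3 libraries of a group came from separate clutches, so that p-values measure the spread between these libraries only.

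Endoderm is the germ layer that forms the gut tube, the liver and the pancreas. In zebrafish its progenitors are specified by Nodal signals and express Sox17, and Forkhead box A (FoxA) factors then open chromatin at gut genes. RA, a vitamin A derivative that acts through nuclear receptors, patterns this sheet of cells from anterior to posterior, so that many regional endoderm genes change when RA is added or its receptors are blocked.

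Libraries held 9971059 to 17806766 counts in genes, with 19150 to 22708 genes detected. One gene, ENSDARG00000080337, took 15.5% to 32.6% of the counts and was left out of the CPM totals. A level of 3 counts corresponded to 0.209 to 0.390 CPM. The ratio of the strand-specific columns was 1.03 to 1.11 in the 3-S libraries and 0.991 to 1.01 in the 8-S libraries, and a difference in library preparation cannot be told apart from stage. BMS493 3-S replicate 2 stood apart from its group, with the highest strand ratio of all libraries (1.11) and the lowest sox17 level of all endodermal libraries. It was not the only one, by chi-square per degree of freedom between replicate pairs. DMSO 3-S replicate 1 had 160 with replicate 2 and 135 with replicate 3, which had 23.8 with each other. For RA 3-S replicate 1 these values were 155 and 113, beside 72.7. Over the BMS493 3-S libraries the summed level of the 5 matched yolk syncytial layer genes ran from 5716 to 12415 CPM. Most of this was apoeb, which also had a mean of 3878 CPM in NE 3-S cells. The other genes of that list had means of at most 6.14 CPM in BMS493 3-S cells.

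The enrichment bound left few genes, and among those the RA bound removed more than the BMS493 bound. At 3-S 120 genes lay at least 3 above NE cells and at 8-S 101 did, and 71 did so at both stages, all of them with DMSO libraries apart from NE libraries. Of these 71, 34 stayed within 1 unit of DMSO with RA and 60 with BMS493, and 30 with both treatments. RA alone removed 30 genes, BMS493 alone removed 4 and both together removed 7. Of the 30 that RA alone removed, 23 were lower with RA at both stages and 6 were higher at both.

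**Figure D1:**
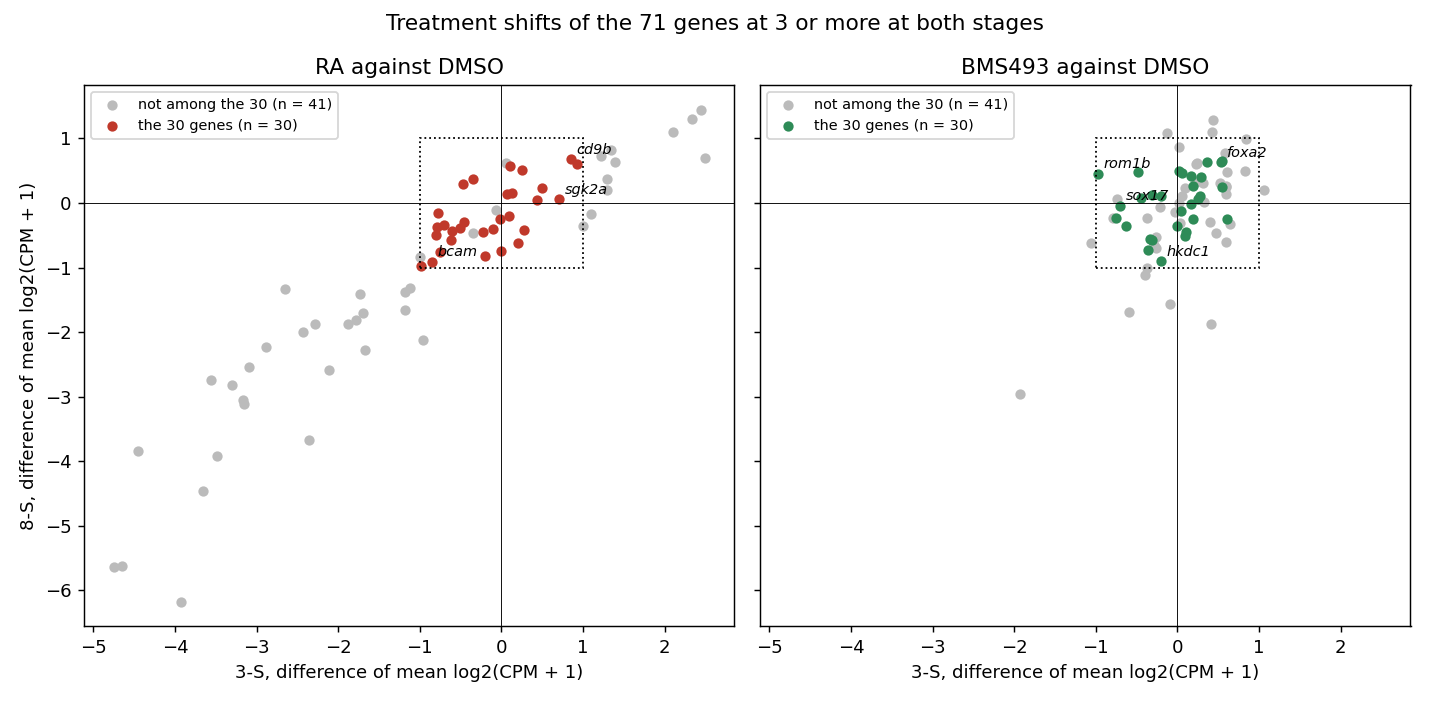
Difference from DMSO in mean log2(CPM + 1) at 3-S (x axis) and 8-S (y axis), with RA on the left and BMS493 on the right, for the 71 genes that lay at least 3 above NE cells at both stages. The dotted square marks 1 unit on either side of 0; the 30 genes that stayed inside it in both panels are coloured and the other 41 are grey.

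The lists of endoderm regulators and of junction genes each had 3 members among the 30. All lists were chosen with earlier results of these data known, so their counts of members are a description only. Of 23 endoderm regulators, 19 matched a gene in the files, and of these sox17, foxa2 and foxa3 belonged to the 30. Another 3 regulators, foxa1, hnf4g and mnx1, reached the same enrichment at both stages but moved by 1 or more with RA. Of 15 matched junction and adhesion genes, cdh6, bcam and cd9b belonged to the 30. The notochord list gave col2a1a and the blood and vessel list gave hbae3. No gene of the Nodal (11 matched), migration and guidance (14 gene IDs), Kupffer's vesicle (5 matched) or yolk syncytial layer (5 matched) lists belonged to the 30. The enveloping layer, prechordal plate and hatching gland, neural, mesoderm, germ cell and neural crest lists also gave none. Of 10 matched enveloping layer genes, 5 were lower by 1 or more in DMSO than in NE cells at both stages. The others, krt8, krt18, anxa1a, cldnf and grhl3, were higher at both, and grhl3 passed the enrichment bound (3.19 and 3.48). Kupffer's vesicle cells also carry sox17:GFP and could be in the sort, and their defining marker dand5, a Nodal antagonist, had mean CPM of 29.0 at 3-S and 148 at 8-S in DMSO cells, below 1 in NE cells and below 1 with RA at both stages. Of the other matched genes of that list, cftr and pkd2 had higher L in DMSO than in NE cells at both stages. The differences were 0.70 and 0.51 for cftr, with means below 1 CPM in DMSO cells, and 0.94 and 0.32 for pkd2. The ciliary genes rsph9 and dnaaf1 had lower L in DMSO than in NE cells at both stages (differences of -0.21 and -0.29 for rsph9 and of -0.43 and -0.32 for dnaaf1). The 5 matched genes, dand5 contributing most, summed to 27.4 to 45.5 CPM in DMSO 3-S libraries and to 5.86 to 6.96 CPM in NE 3-S libraries. At 8-S these sums were 70.0 to 276 CPM in DMSO libraries and 8.19 to 9.42 CPM in NE libraries. The part of those cells in the levels below was not tested.

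All 30 genes were higher in each of the 18 endodermal libraries than in any of the 6 NE libraries, RA and BMS493 libraries included. The smaller of the DMSO minus NE differences in L ranged from 3.01 to 6.82 with a median of 3.73, and it exceeded 4 in 11 genes. The mean CPM in NE cells was between 0.298% and 10.7% of that in DMSO cells at 3-S (median 3.26%) and between 0.377% and 12.3% at 8-S (median 5.48%). DESeq2 called all 30 higher in DMSO than in NE cells at both stages, where 4.23% of genes tested at 3-S were called higher and 3.35% lower, and 4.4% and 2.78% at 8-S, and nothing is read from this count because the rule used the same libraries. In these bulk samples, fewer cells of a type and less RNA per cell cannot be told apart. Gene lengths were not used, so levels are compared between groups for one gene and not between genes.

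**Figure D2:**
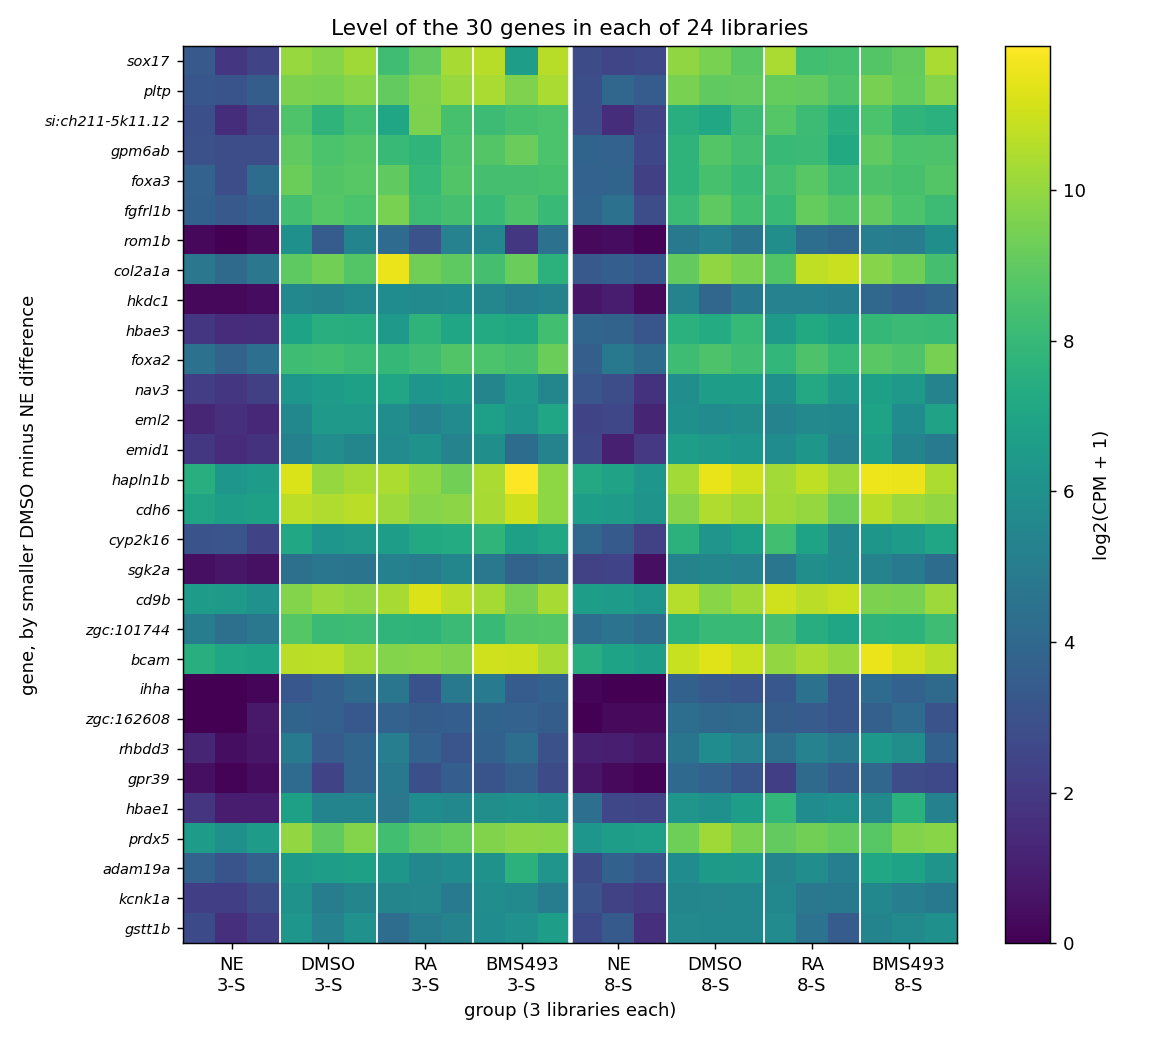
Level of each of the 30 genes (rows, ordered by the smaller DMSO minus NE difference) in each of the 24 libraries (columns, 3 per group), as log2(CPM + 1). The NE columns are darker than every endodermal column of the same row, and sox17 and rom1b are low in the second BMS493 3-S library.

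**Figure D3:**
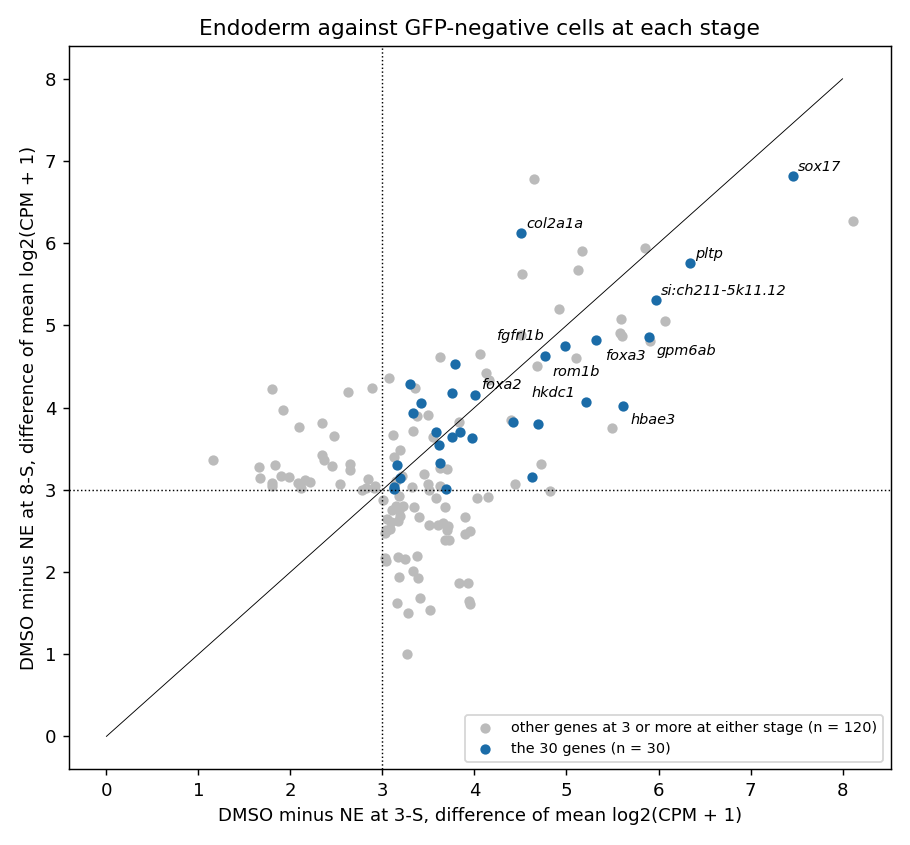
Difference in mean log2(CPM + 1) between DMSO endodermal and NE cells at 3-S (x axis) and 8-S (y axis) for the 150 genes at 3 or more at either stage, with the 30 genes in blue, the dotted lines at 3 and the diagonal marking equal differences. Among the 30, names are given for the 11 above 4 at both stages; sox17 lies at 7.46 and 6.82, and col2a1a lies well above the diagonal.

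Among the transcription factors, sox17 had the largest difference from NE cells, 7.46 at 3-S and 6.82 at 8-S. Its own promoter selected the cells, so this level describes the sort. In DMSO cells sox17 stood at 1061, 855 and 1190 CPM at 3-S and at 962, 738 and 465 CPM at 8-S. In NE cells it stood between 2.65 and 8.98 CPM over all 6 libraries. The spread between libraries of a group was nevertheless the widest of the 30 genes, with a within-group SD of 1.23 on the log2 scale.

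RA-treated cells had sox17 at 307, 521 and 1309 CPM at 3-S and at 1354, 318 and 348 CPM at 8-S. BMS493-treated cells had it at 1610, 97.5 and 1579 CPM at 3-S and at 426, 523 and 1368 CPM at 8-S. Treated and control libraries overlapped at both stages. The BMS493 3-S difference from DMSO was -0.70 with all libraries and 0.64 without BMS493 3-S replicate 2, so that its sign rested on this library. sox17 failed the rule when any of 4 libraries was left out, namely RA 3-S replicate 3, RA 8-S replicate 1 and BMS493 3-S replicates 1 and 3.

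The pioneer factors foxa2 and foxa3 had steadier levels. foxa3 stood at 604, 404 and 444 CPM in DMSO 3-S cells and at 215, 350 and 263 CPM in DMSO 8-S cells, against 3.71 to 17.6 CPM in NE cells. Its differences from DMSO were -0.34 and 0.37 with RA at 3-S and 8-S and -0.48 and 0.49 with BMS493, so that each treatment gave opposite signs at the 2 stages. foxa2 stood at 298, 311 and 273 CPM in DMSO 3-S cells and at 299.95, 387 and 303 CPM in DMSO 8-S cells, against 10.99 to 27.1 CPM in NE cells. With BMS493 it stood at 371, 342 and 609 CPM at 3-S and at 471, 394 and 706 CPM at 8-S. All BMS493 libraries lay above all DMSO libraries at both stages, which held for 0.35% of the 14566 genes with a mean of at least 10 counts. The differences of 0.53 and 0.63 were inside the bound of the rule, and DESeq2 did not call them. Of the 30 genes, foxa2 alone had this pattern with BMS493.

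The paralogue foxa1 marks where the RA bound fell among FoxA genes. Its mean level was 168 CPM in DMSO 3-S cells and 77.0 CPM with RA, and 220 and 87.8 CPM at 8-S. Its largest treatment difference, 1.32, kept it out of the 30.

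Adhesion and cell surface genes among the 30 were bcam, cd9b, cdh6, gpm6ab and rom1b. bcam, a laminin receptor of the immunoglobulin superfamily, stood at 1658, 1669 and 1200 CPM in DMSO 3-S cells and at 826, 880 and 771 CPM with RA. At 8-S it stood at 1910, 2602 and 1904 CPM in DMSO cells and at 1018, 1367 and 1026 CPM with RA. The RA libraries lay below all DMSO libraries at both stages, a pattern shared by 4.3% of genes, and the differences of -0.85 and -0.91 came close to the bound. cd9b, which encodes a tetraspanin, went the other way. It stood at 843, 1095 and 988 CPM in DMSO 3-S cells and at 1299, 2470 and 1696 CPM with RA, and at 1548, 888 and 1178 CPM against 2131, 1638 and 1916 CPM at 8-S. All RA libraries were above all DMSO libraries at both stages, as in 2.45% of genes, with differences of 0.86 and 0.68. Without RA 3-S replicate 1 the 3-S difference of cd9b was 1.08 and the gene left the set.

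cdh6, a cadherin of the calcium-dependent adhesion family, stood at 1704, 1437 and 1625 CPM in DMSO 3-S cells and at 1159, 865 and 917 CPM with RA. These groups did not overlap at 3-S but did at 8-S, where the difference was -0.34. The epithelial cadherin cdh1 was also above NE cells, by 1.37 at 3-S and 2.87 at 8-S, and did not reach the enrichment bound. gpm6ab, a proteolipid family membrane glycoprotein best known from neurons in mammals, had differences from NE cells of 5.90 and 4.86, with 368 to 516 CPM in DMSO 3-S cells and 5.05 to 13.5 CPM in all NE cells. rom1b, whose mammalian counterpart is a tetraspanin of photoreceptor discs, had at most 0.325 CPM in any NE library, which is at most 3 counts. Its endodermal levels ran from 2.87 CPM in BMS493 3-S replicate 2 to 61.7 CPM, and its BMS493 3-S difference from DMSO was -0.98 with that library and 0.03 without it.

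Matrix and secreted proteins were represented by hapln1b, col2a1a, emid1, adam19a and ihha. hapln1b encodes a link protein that joins hyaluronan to proteoglycans, and it ranged from 662 to 3850 CPM in endodermal cells against 75.4 to 175 CPM in NE cells. col2a1a encodes the chain of type II collagen, a main component of cartilage and the notochord sheath. It stood at 500.1, 666 and 424 CPM in DMSO 3-S cells and at 531, 987 and 733 CPM in DMSO 8-S cells, against 16.5 to 25.6 and 8.83 to 10.7 CPM in NE cells. RA cells had 3051, 640 and 504 CPM at 3-S and 405, 1741 and 1940 CPM at 8-S. Its mean RA difference therefore depended on single libraries, and at 3-S it was 0.93 with all libraries and 0.12 without RA 3-S replicate 1. Other omissions took col2a1a out of the set, namely RA 3-S replicate 2, RA 3-S replicate 3 and DMSO 3-S replicate 2. RA 8-S replicate 1, the lowest RA library at 8-S (405 CPM), did so too. With BMS493 its 3-S difference was -0.62 with all libraries. Without BMS493 3-S replicate 2 that difference was -1.01 and col2a1a left the set. Of the other 4 matched notochord genes, col8a1a was also higher in DMSO than in NE cells (by 1.12 and 2.87 in L). The defining markers noto and shha had lower means in DMSO cells than in NE cells at both stages. At 3-S these were 5.67 against 34.1 CPM for noto and 4.75 against 24.9 CPM for shha. The gaps were narrower at 8-S, with 15.4 against 33.3 CPM for noto and 7.83 against 13.1 CPM for shha. In RA cells noto and shha had means of 1.26 and 1.47 CPM at 3-S, below those in DMSO cells. With BMS493 both means were above those in DMSO cells at 3-S. The 3-S means of col8a1a moved in the opposite directions, as those of col2a1a did. They were 39.7 CPM with RA, above DMSO cells, and 3.37 CPM with BMS493, below DMSO cells. The remaining gene, col9a1, differed from NE cells by 0.10 and -0.14 in L. The list was thus split. The part of notochord cells in the col2a1a level was not tested.

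emid1, a secreted protein with an EMI domain, differed from NE cells by 3.79 and 4.53. adam19a, a membrane metalloprotease, differed by 3.13 and 3.03, close to the bound, and its RA differences were -0.76 at both stages with libraries apart at 3-S. ihha encodes the Indian hedgehog ligand, which gut endoderm sends to the surrounding mesenchyme. It stood at 8.26, 11.7 and 16.6 CPM in DMSO 3-S cells and at 11.8, 8.98 and 7.79 CPM in DMSO 8-S cells, while 4 of 6 NE libraries had no count and the other 2 had 1 count each.

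Receptors, channels and signalling proteins among the 30 were fgfrl1b, kcnk1a, gpr39 and sgk2a. fgfrl1b, an FGF receptor-like protein without a kinase domain, had the smallest treatment differences of the 30 genes. Its 4 differences from DMSO lay between -0.32 and 0.16, around means in DMSO cells that were 4.98 and 4.75 above NE cells in L. It ranged from 265 to 721 CPM over the 18 endodermal libraries, and the highest was RA 3-S replicate 1. kcnk1a, a tandem-pore potassium channel, ranged from 26.0 to 67.3 CPM with differences from DMSO between -0.45 and -0.01. gpr39, a zinc-sensing G protein-coupled receptor in mammals, ranged from 3.55 to 27.5 CPM. sgk2a, a serum and glucocorticoid regulated kinase family member, stood at 20.2, 24.5 and 22.6 CPM in DMSO 3-S cells and at 36.6, 32.1 and 43.9 CPM with RA. The groups did not overlap at 3-S (difference 0.71) and overlapped at 8-S (difference 0.06).

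Cytoskeletal genes were nav3 and eml2, whose mammalian counterparts bind microtubules. nav3 stood at 74.9, 93.3 and 109 CPM in DMSO 3-S cells and between 2.37 and 7.76 CPM in NE cells. Its BMS493 3-S difference from DMSO was -0.76 with all libraries. Without BMS493 3-S replicate 2 the difference was -1.08 and nav3 left the set. eml2 differed from NE cells by 4.69 and 3.80, and its RA libraries lay below all DMSO libraries at 8-S (38.7, 47.3 and 45.8 against 61.3, 53.4 and 58.5 CPM).

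Lipid, sugar and redox enzymes made up a further group. pltp, the phospholipid transfer protein that moves lipids between lipoproteins, differed from NE cells by 6.34 and 5.76, next after sox17 when genes were ordered by the smaller difference. It stood at 758, 722 and 850 CPM in DMSO 3-S cells and at 719.9, 512 and 532 CPM in DMSO 8-S cells, against 6.36 to 14.2 CPM in NE cells. pltp kept its place in the set when any one library was left out and under all 7 other scalings, pseudocounts, filters and count columns tried with the bounds unchanged. hkdc1, a hexokinase domain protein that phosphorylates glucose, had 0.183 to 0.866 CPM in NE cells and 10.6 to 55.2 CPM in endodermal cells. cyp2k16 is a cytochrome P450, prdx5 a peroxiredoxin and gstt1b a glutathione S-transferase, and their smaller differences from NE cells were 3.64, 3.14 and 3.01. gstt1b sat nearest to the RA bound at both stages, with differences of -0.99 and -0.97, and to the enrichment bound at 8-S (3.01). It stayed in the set under 2 of those 7 settings and with 18 of 24 libraries left out in turn. zgc:101744 and zgc:162608 are given by name only, as is rhbdd3, a rhomboid domain protein. zgc:101744 differed from DMSO by -0.46 to 0.17, and zgc:162608 ranged from 7.33 to 18.6 CPM in endodermal cells.

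Treatment differences within the bound were spread on both sides of 0. With RA, 12 of the 30 were higher and 18 lower at 3-S (median -0.15), and 11 were higher and 19 lower at 8-S (median -0.31). With BMS493, 17 were higher and 13 lower at 3-S (median 0.05), and 16 were higher and 14 lower at 8-S (median 0.07). The largest of the 4 absolute differences of a gene ranged from 0.32 to 0.99 with a median of 0.68, and it was under 0.5 for fgfrl1b, rhbdd3, kcnk1a, zgc:101744, hbae1 and foxa3. These values moved with single libraries, and without RA 3-S replicate 1 the RA 3-S difference of rhbdd3 went from -0.10 to -0.65 and that of foxa3 from -0.34 to -0.57. By DESeq2 none of the 30 was called with RA or BMS493 at either stage, and edgeR called none. At an unadjusted p under 0.05, DESeq2 had 5 and 4 of the 30 with RA at 3-S and 8-S and 0 and 3 with BMS493, and edgeR had 5, 3, 0 and 3. Over all genes tested, the share at that level by DESeq2 was 15.9% and 12.8% with RA and 7.22% and 5.68% with BMS493. The background of calls at an adjusted p under 0.01, higher and lower in turn, was 1.93% and 2.2% for RA at 3-S, 0.953% and 1.72% for RA at 8-S, 0% and 0.173% for BMS493 at 3-S, and 0.00595% and 0.381% for BMS493 at 8-S. The bound of the rule kept larger differences out of the 30, so nothing is read from these counts. The comparisons share their DMSO libraries.

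Single-stage patterns without overlap concerned few genes. With RA, hkdc1, sgk2a and cd9b were apart and higher at 3-S (8.46% of genes), and cdh6, bcam and adam19a were apart and lower (8.78%). At 8-S cd9b was higher (5.06%), and hbae3, eml2, bcam and zgc:162608 were lower (10.5%). With BMS493, foxa2 was higher (5.92%) and foxa3 lower (3.34%) at 3-S, and foxa2 and ihha were higher at 8-S (3.47%) while no member was lower (5.92%).

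The bounds cut through a continuous range. Just inside the enrichment bound lay kcnk1a (3.13), adam19a (3.13) and gpr39 (3.16) at 3-S and gstt1b (3.01), kcnk1a (3.01) and adam19a (3.03) at 8-S. Just outside it, with all other conditions met, lay BX322608.1 (2.88), osr2 (2.82) and si:dkey-111e8.5 (2.46) at 3-S and a second hbae1 entry (2.90), gfra1a (2.88) and sptlc3 (2.80) at 8-S. For RA at 3-S gstt1b (-0.99), col2a1a (0.93) and cd9b (0.86) were just inside, and si:ch73-234b20.5 (-1.001), mnx1 (1.10) and elovl1b (1.22) were just outside. At 8-S gstt1b (-0.97), bcam (-0.91) and hbae3 (-0.81) were just inside and pitx1 (-2.13) was the only gene that failed there alone. For BMS493 at 3-S rom1b (-0.98), nav3 (-0.76) and sox17 (-0.70) were inside and onecut1 (-1.05) outside. At 8-S hkdc1 (-0.90), emid1 (-0.73) and eml2 (0.65) were inside, and tspan12 (-1.001), hbbe1.1 (1.10) and ptprfa (-1.12) outside.

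Of the 30 genes, 3 encode embryonic globins, the oxygen carriers of red blood cells. hbae3 and hbae1 (ENSDARG00000089475) are alpha-type, and si:ch211-5k11.12 is listed as HBE1, a beta-type globin, in the symbol table. hbae3 stood at 119, 174 and 171 CPM in DMSO 3-S cells and at 191, 162 and 250 CPM in DMSO 8-S cells. In NE cells it stood at 2.68, 1.83 and 1.96 CPM at 3-S and at 13.7, 12.8 and 8.12 CPM at 8-S. si:ch211-5k11.12 stood at 394, 212 and 317 CPM in DMSO 3-S cells and at 1.92 to 6.40 CPM in all NE cells. hbae1 stood at 109, 40.9 and 40.1 CPM in DMSO 3-S cells and at 2.48, 0.915 and 0.870 CPM in NE 3-S cells. Embryonic globin genes are near-identical copies, and only reads that map to one place were counted, so the split of reads between copies is uncertain.

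The wider globin family was then listed by name, a choice made after the values were seen. Of 16 globin gene IDs, 7 were at least 1 unit higher in L in DMSO than in NE cells at both stages, and these 7 are the 3 members together with hbbe1.1, hbbe1.2, si:ch211-5k11.2 and the second hbae1 entry (ENSDARG00000089124). All 7 belong to the globin cluster of chromosome 3 in the RefSeq annotation of assembly GRCz12tu, used for names and gene order only. Their summed level ranged from 593 to 921 CPM in DMSO 3-S cells and from 481 to 948 CPM in DMSO 8-S cells, against 6.59 to 20.1 and 29.2 to 71.4 CPM in NE cells. These 7 were picked for being higher in DMSO than in NE cells. The direction of that contrast was thus fixed by the choice, and the sums are a description only. With RA it ranged from 360.3 to 1392 CPM at 3-S and from 533 to 1033 CPM at 8-S, and with BMS493 from 751 to 1027 and from 722 to 1017 CPM. The sum over copies does not depend on how the counted reads were split among them, but it leaves out reads that map to more than one copy. The 3 embryonic globins that matched chromosome 12, hbbe3, hbae4 and hbae5, had means of at most 0.470 CPM in every endodermal group. Not all globins of chromosome 3 were high, since hbaa1 and hbaa2, also placed there, had means of at most 0.292 CPM in every group.

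The blood regulators gata1a and tal1 were lower in DMSO than in NE cells, unlike the 7 globins above. gata1a, the erythroid master regulator, stood at 13.3, 19.5 and 14.2 CPM in NE 3-S cells and at 72.4, 60.5 and 38.6 CPM in NE 8-S cells. Over the 18 endodermal libraries it had at most 1.08 CPM. hbbe3 likewise stood at 17.3, 4.55 and 2.60 CPM in NE 8-S cells and at most at 1.25 CPM in endodermal libraries. tal1, a blood and vessel progenitor regulator, had means of 126 and 188 CPM in NE cells and 19.9 and 17.9 CPM in DMSO cells. Of the 6 matched blood and vessel genes, 4 were lower by 1 or more in DMSO than in NE cells at both stages and hbae3 was the only one above the enrichment bound. The part of blood cells in the globin levels was not tested.

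**Figure D4:**
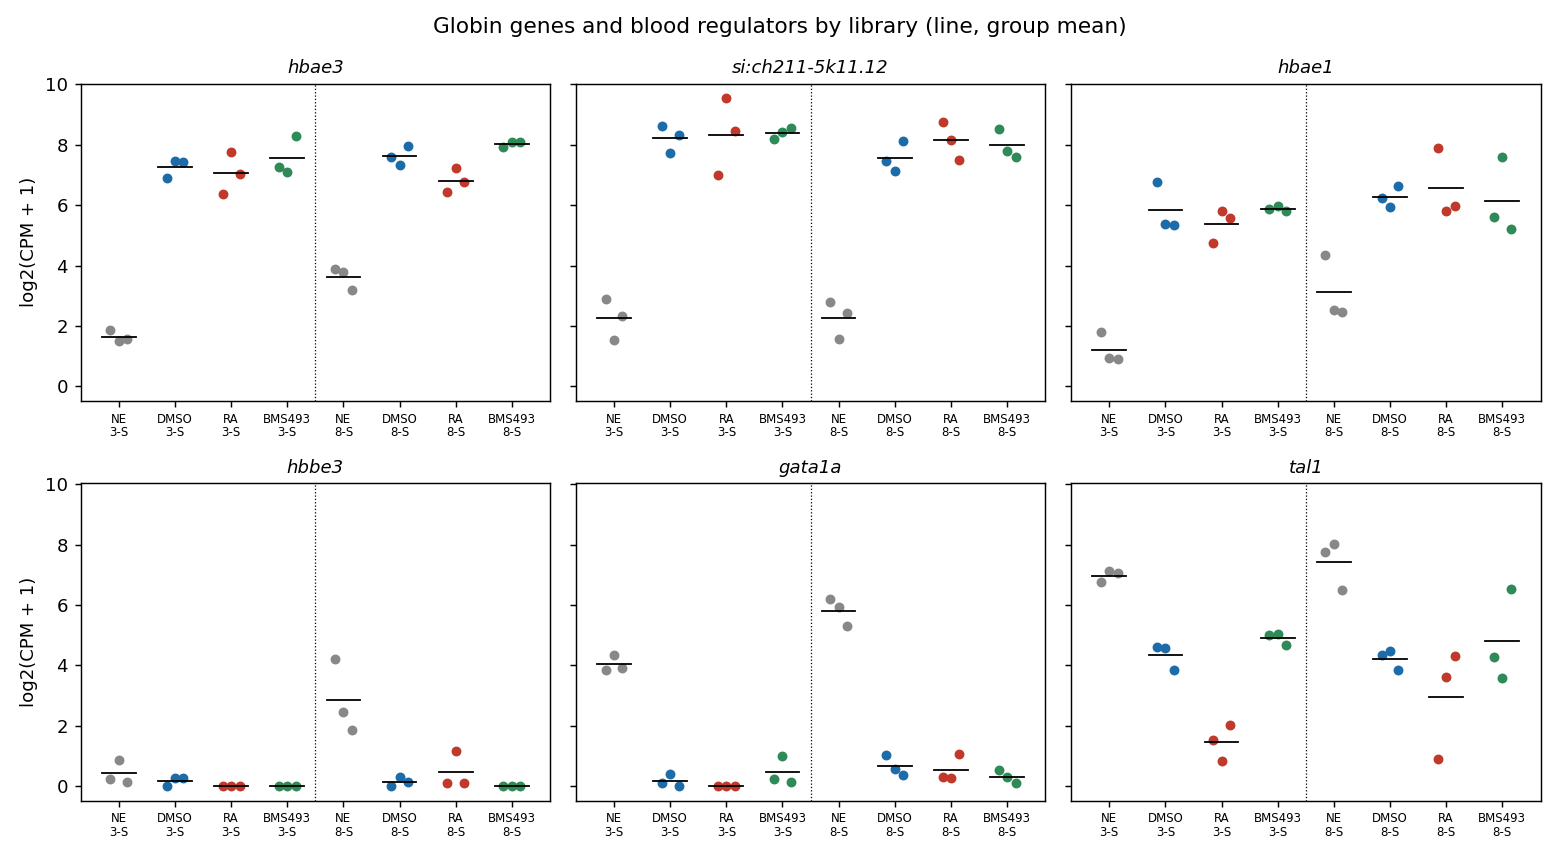
Level as log2(CPM + 1) in each library (points) with the group mean (line) for the 3 globins among the 30 genes (top) and for hbbe3, gata1a and tal1 (bottom), 3-S left and 8-S right of the dotted line. The upper genes are higher in all 18 endodermal libraries than in the 6 NE libraries, gata1a is higher in the 6 NE libraries than in any endodermal library, and hbbe3 is highest in NE 8-S cells.

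By gene order in the same annotation, the 30 genes fell on 19 chromosomes, with at most 4 on one. The 3 globins were separated by 1 to 4 other protein-coding genes. emid1 and rhbdd3 lie next to each other on chromosome 5 with overlapping spans. The count column used takes no account of strand, so reads from any overlap of their exons cannot be assigned. The spans of sox17, fgfrl1b, cyp2k16, sgk2a and adam19a also overlap protein-coding genes outside the 30. Whether exons of any of these genes overlap in the Zv9 annotation used for counting was not checked. Over the 18 endodermal libraries the deviations of emid1 and rhbdd3 from their group means had a Pearson r of 0.20. No other pair of the 30 had fewer than 10 protein-coding genes between them.

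The 30 genes did not move as one block between libraries of the same group. Over 435 pairs, the deviations from group means in 18 endodermal libraries had a median Pearson r of 0.08, with 17 pairs over 0.7. Strongly negative pairs also occurred, so the median covers genes that moved together and genes that moved oppositely. For example, sox17 and pltp had an r of 0.81 with each other and of -0.76 and -0.77 with col2a1a. The same values were not computed for pairs of other genes. The highest values were for fgfrl1b with col2a1a (0.90), nav3 with adam19a (0.89) and hapln1b with rhbdd3 (0.87). The lowest were for cd9b with adam19a (-0.88), hapln1b with cd9b (-0.85) and col2a1a with gstt1b (-0.82), and sox17 with adam19a stood at -0.80. These values describe libraries that also differ in depth and cell makeup, and the genes of a library share both. The median within-group SD of the 30 genes was 0.46 on the log2(CPM + 1) scale, beside 0.45 for the 7697 genes in the same range of mean CPM. It was lowest for zgc:162608 (0.28), bcam (0.30) and foxa3 (0.32) and highest for sox17 (1.23), rom1b (1.13) and col2a1a (0.91).

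The change from 3-S to 8-S was tested with DESeq2 in each kind of cell, with adjusted p-values over all genes and a threshold of 0.01. In DMSO endodermal cells none of the 30 genes was called, where 0.244% of 15135 genes were called higher and 0.0463% lower, so that a count of 0 among 30 is near the background. Enrichment was required at both stages, which tends to keep out genes that fell far in DMSO cells, so nothing more is read from this count. At an unadjusted p under 0.05 there were 2, foxa3 and hkdc1, beside 11.2% of all genes tested, and edgeR called none and also had 2 at that level. Both had lower means at 8-S, with log2 fold changes of -0.91 for foxa3 (SE 0.39, DESeq2 adjusted p = 0.37) and -0.85 for hkdc1 (SE 0.29, DESeq2 adjusted p = 0.17). The median log2 fold change of the 30 was -0.15, beside -0.01 for all genes tested, and its sign rested on one library, since it was 0.17 without DMSO 3-S replicate 1 and -0.37 without DMSO 8-S replicate 2. Counts were also simulated for this comparison, with changes in genes drawn from all those with a mean of at least 10 normalized counts. The test found 3 of 50 genes changed 2-fold, 26 of 50 changed 4-fold, 41 of 50 changed 8-fold and 43 of 50 changed 16-fold. A 2-fold change would thus mostly have been missed among genes drawn this way. In the same simulation 13 unchanged genes were also called. Beside the recovered genes, this is a larger share of the calls than the threshold of 0.01 names. Recovery at the levels of the 30 genes was not simulated, and neither were the stage comparisons in NE, RA and BMS493 cells.

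Libraries of the stages did not overlap for a few genes in DMSO cells. emid1, sgk2a, bcam and zgc:162608 were higher at 8-S (4 of 30, beside 10.6% of 14566 genes) and pltp, foxa3, cdh6 and zgc:101744 were lower (4 of 30, beside 3.49%). sgk2a stood at 20.2, 24.5 and 22.6 CPM at 3-S and at 39.6, 43.8 and 37.9 CPM at 8-S. emid1 stood at 37.0, 55.4 and 43.8 CPM at 3-S and at 96.8, 82.0 and 75.02 CPM at 8-S. Neither difference passed the test.

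In NE cells 1 of the 30 genes was called higher at 8-S, where 0.0141% of 21298 genes (3 genes) were called higher and 0% lower. This was hbae3, with the values given above and no overlap between stages (log2 fold change 2.35, SE 0.40, DESeq2 adjusted p = 7e-05, edgeR adjusted p = 0.040). The adjusted p was between 0.0113 and 0.0176 when NE 3-S replicate 2, NE 3-S replicate 3 or NE 8-S replicate 1 was left out, and the call was lost. In NE cells hbae1 moved from at most 2.48 CPM to 19.3, 4.77 and 4.57 CPM, again without overlap, and did not pass (log2 fold change 2.63, SE 0.72, DESeq2 adjusted p = 0.26). si:ch211-5k11.12 stood at 6.40, 1.92 and 4.02 CPM at 3-S and at 5.93, 1.95 and 4.42 CPM at 8-S. Its NE levels thus overlapped fully while those of hbae3 did not. In DMSO cells the change of hbae3 was 0.29 (SE 0.35, DESeq2 adjusted p = 0.89). The difference between the changes in NE and DMSO cells was not tested. At an unadjusted p under 0.05, DESeq2 had 5 of the 30 between stages in NE cells, beside 3.63% of all genes tested. By edgeR there were also 5, beside 3.25%.

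sgk2a in NE cells rested on one library. It stood at 0.382, 0.641 and 0.435 CPM at 3-S and at 4.09, 4.22 and 0.394 CPM at 8-S (log2 fold change 2.45, SE 0.59, DESeq2 adjusted p = 0.079). Without NE 8-S replicate 3 the log2 fold change was 2.96 and DESeq2 called it (adjusted p = 0.00067). Apart from hbae3 and hbae1, col2a1a and cdh6 had NE libraries that did not overlap between stages, both lower at 8-S (4.05% of genes, beside 7.54% higher).

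In RA-treated cells none of the 30 genes was called, where 0.0828% of genes were called higher and 0.0127% lower. Of the 30, 2 had an unadjusted p under 0.05 by DESeq2, hbae1 and pltp, beside 14.5% of all genes tested, and edgeR called none and had 2. hbae1 stood at 25.6, 54.8 and 46.3 CPM at 3-S and at 238, 54.6 and 62.3 CPM at 8-S, so that RA 8-S replicate 1 carried the difference. bcam was apart and higher at 8-S (1 of 30, beside 4.83% of genes), and hkdc1 and zgc:162608 were apart and lower (2 of 30, beside 7.24%).

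In BMS493-treated cells 1 of the 30 genes was called, where 0.00714% of 14015 genes were called higher and 0.0143% (2 genes) lower. This was hkdc1, which stood at 44.2, 34.2 and 38.7 CPM at 3-S and at 14.9995, 10.6 and 13.6 CPM at 8-S without overlap (log2 fold change -1.57, SE 0.29, DESeq2 adjusted p = 0.00058). edgeR did not call it (adjusted p = 0.27), and DESeq2 lost the call when any of 4 libraries was left out, BMS493 3-S replicate 1, 2 or 3 or BMS493 8-S replicate 2 (adjusted p 0.0126 to 0.0884). In DMSO cells hkdc1 stood at 46.3, 38.8 and 49.6 CPM at 3-S and at 39.6, 14.3 and 27.6 CPM at 8-S. With RA it stood at 55.2, 50.6 and 55.0 CPM at 3-S and at 37.6, 37.3 and 33.8 CPM at 8-S (log2 fold change -0.51). The mean of hkdc1 was thus lower at 8-S in all 3 kinds of endodermal cells, and in NE cells it stayed under 1 CPM. Whether the fall differed between treatments was not tested. Of the 30, 3 had an unadjusted p under 0.05 by DESeq2 in BMS493 cells, hkdc1, pltp and rhbdd3, beside 10.5% of all genes tested, and edgeR had 3. No member was apart and higher at 8-S with BMS493 (5.38% of genes), and hkdc1 was the only one apart and lower (4.44%).

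**Figure D5:**
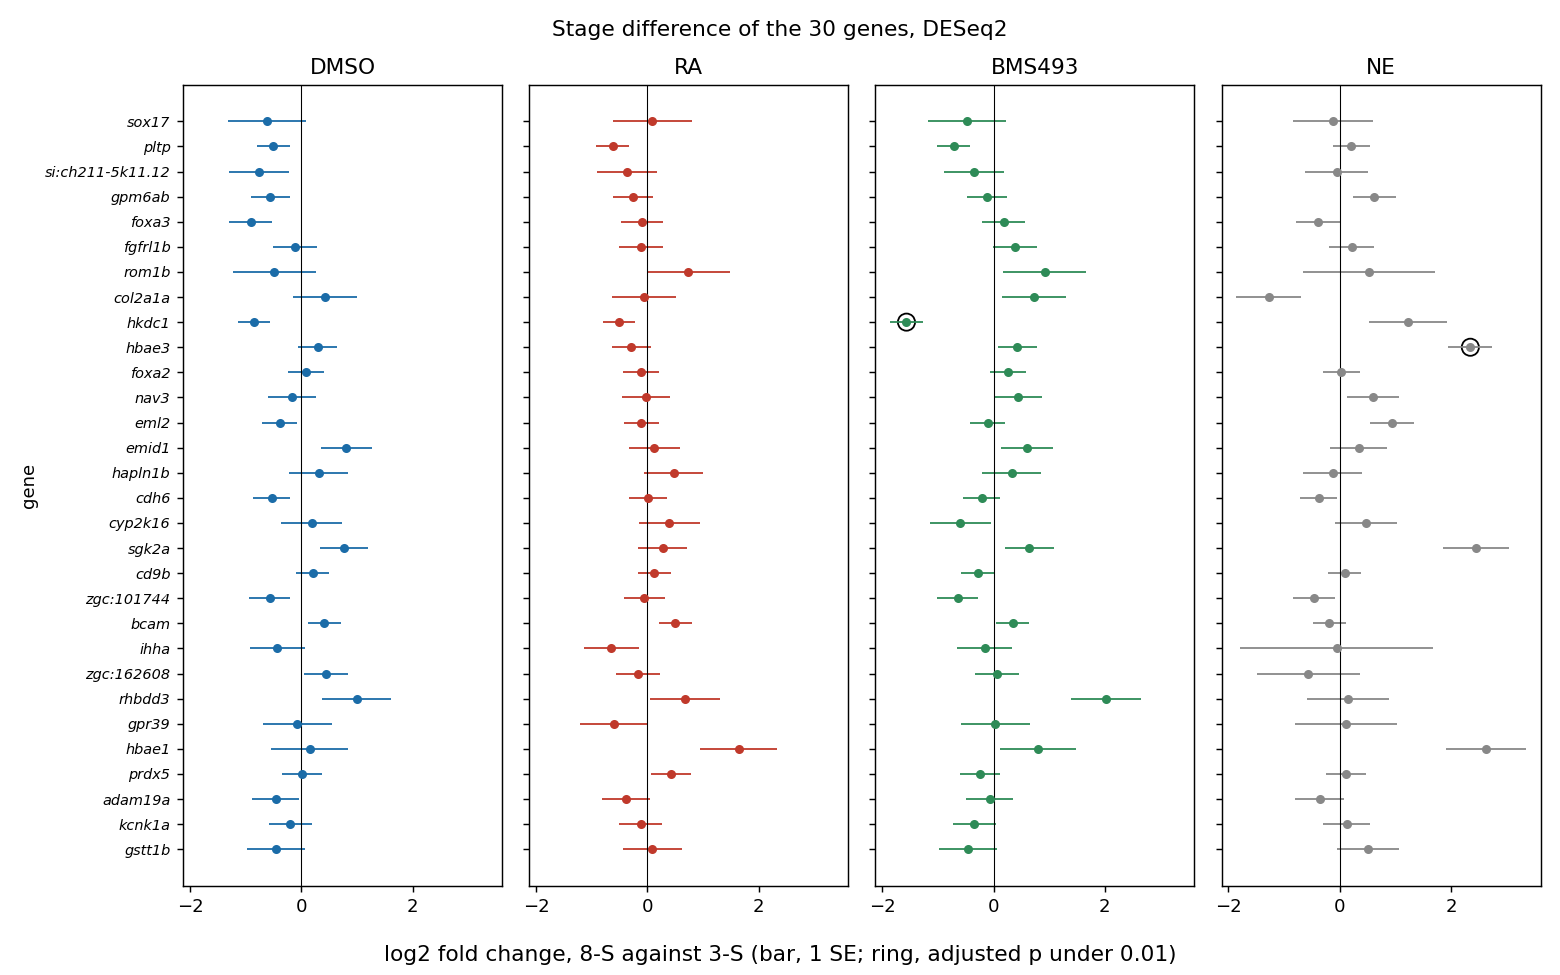
DESeq2 log2 fold change of 8-S against 3-S for the 30 genes (rows) in DMSO, RA and BMS493 endodermal cells and in NE cells, with bars of 1 SE and rings around calls at an adjusted p under 0.01. The rings are hkdc1 with BMS493 (-1.57) and hbae3 in NE cells (2.35), and most other points lie within 1 unit of 0.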

How the data were processed

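Sorted cells were profiled by SMART-seq2 with Nextera XT libraries and single-end reads, which the authors aligned with STAR (version 2.5.4 per the submitters' processing notes) to the Zv9 genome with Ensembl annotation. The authors deposited raw read counts per gene. The count column without strand was used, the 4 summary lines and ENSDARG00000080337 were left out, and CPM and log2(CPM + 1) were computed from these counts. Reads not assigned to a gene, the sum of the 4 summary lines, were 21.3% to 35.7% of the column. Reads mapping to several places were not counted to genes. Names came from the study's tables (30 of 30 genes), and 26 of the 30 IDs are in the symbol table. The 30 genes and the gene lists were chosen with earlier results of these data known. The genes named were all those on a list, the 15 most enriched, the 6 with the smallest treatment differences, those nearest the bounds and those called between stages, and further genes were named with their values in view.

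Stage differences were tested with DESeq2 (version 1.42.0, R 4.3.3), as in the study's methods, on raw counts of all 24 libraries with group as the only factor (Wald test, Benjamini-Hochberg adjusted p under 0.01, default filtering, unshrunken fold changes). edgeR (version 4.0.16, quasi-likelihood), other scalings, pseudocounts, filters, strand columns, bounds, a replicate block and leaving out each library were alternatives. Chi-square per degree of freedom was 17.5 to 160.0 over the 24 replicate pairs, far above sampling noise, and all libraries were counted as separate samples. Separate preparations of the same cells could also differ by this much, so the values cannot tell whether replicates came from separate embryos. The scripts were tested on simulated counts of 33737 genes, where 13 of the unchanged genes were called beside the recovered genes given above. Calls between stages can therefore include false ones. Floors of 3 counts cover counting error only.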

Additional observations from a re-analysis of the deposited data

Results flagged for a closer look

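The change of zgc:162608 between stages went in opposite directions in 2 kinds of endodermal cells, with no overlap between stages in either. In DMSO cells its L was 0.53 higher at 8-S (13.5, 11.4 and 8.84 CPM against 18.6, 14.9 and 16.3 CPM). In RA cells the difference was -0.22 (12.3, 10.5 and 10.7 CPM against 10.4, 9.67 and 8.25 CPM). The difference between these changes was not tested, and neither change was called by DESeq2.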

How the results depend on the processing

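The number of genes that met the rule was 30. It was 23 with ENSDARG00000080337 kept, 29 with TMM, 28 with DESeq2 size factors, 34 with a pseudocount of 0.5, 32 with summed strand columns and 30 with a filter at a mean of 10 counts. It was 19 with a pseudocount of 5 (17 of them among the 30), which lowers differences of genes with low counts by construction. With a treatment bound of 0.5 it was 6, with an enrichment bound of 4 it was 11 and with one of 2 it was 89. Leaving out each library in turn gave 27 to 33 genes, of which at least 26 were among the 30. Under all 7 settings with the same bounds and all 24 left-out libraries, 10 genes met the rule each time.

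Members called between stages in NE cells numbered 1 with DESeq2 and 0 with edgeR, and 0 to 2 with one library left out. In BMS493 cells they numbered 1 with DESeq2, 0 with edgeR, 0 when only the 6 libraries compared were fitted, and 0 to 1 with one library left out. In DMSO and RA cells they numbered 0 under every alternative run. hbae3 in NE cells and hkdc1 in BMS493 cells kept their direction between stages under every alternative run. A replicate block left these counts at 0, 1, 0 and 1 in DMSO, NE, RA and BMS493 cells. No label says that same-numbered libraries were paired. Deviations of same-numbered 3-S and 8-S libraries had r from -0.47 to 0.57, and 3 of 12 libraries correlated best with their own number. These included BMS493 replicates 2 and 3 (r of 0.47 and 0.57). With 3 libraries in a group, these values cannot settle whether the numbers were paired.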
